A study of Rattus norvegicus with 3 samples.

Results

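Chemokines and their receptors were examined in single-nucleus RNA sequencing of the rat heart, as the genes whose symbols begin with Ccl, Cxcl, Cx3c, Xcl, Xcr, Ccr, Cxcr or Ackr and a number. This rule gave 55 of the 22250 genes counted, with 34 ligands and 21 receptors. The nuclei came from the heart apex, with parts of the septum and of both ventricles, of rats at 12 months of age, and there was 1 library for each of 3 genotypes. WT was wild-type, BMD carried an in-frame CRISPR/Cas9 deletion of exons 45 to 47 of Dmd, the dystrophin gene, and DMD carried a deletion of exon 52 of Dmd. How many animals went into a library is not given in the sources used here. The deletions leave most of Dmd in place, so its count does not check the labels, which were taken as given. With 1 library per genotype no test was possible. Genotype cannot be told apart from animal or library, and every interval covers counting error only.

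Chemokines are small secreted proteins that guide migrating leukocytes towards their source. Their receptors couple to inhibitory G proteins, while the atypical receptors of the Ackr group bind chemokines and remove them without this signal. In the heart, inflammatory ligands such as Ccl2 and Ccl7 draw in monocytes, Ccl21 draws lymphocytes and dendritic cells into lymphatic vessels, and Cxcl12 retains cells around vessels.

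The libraries held between 19215994 and 21609238 unique molecular identifiers (UMIs, each standing for 1 captured RNA molecule), and the median nucleus had between 1212.5 and 1486.5 UMIs. Pairs of libraries shared 12 to 20 cell barcodes. Nuclei were clustered without the chemokine genes and named after markers, and 1337 nuclei stayed unnamed. Macrophage-like nuclei raised 10 of 10 macrophage markers, lymphatic-like nuclei 6 of 6 and monocyte or neutrophil-like nuclei 5 of 7. Scrublet, which looks for droplets with more than 1 nucleus, marked between 4.80% and 10.3% of a library, and these nuclei were kept. Levels are given in CPM, the UMIs of a gene per 1000000 UMIs of the same nuclei, followed in brackets by the exact Poisson 95% interval. Values in a run of 3 stand for WT, BMD and DMD. Each gene is compared only with itself, across cell classes and libraries.

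The chemokine genes were sparse. Of the 55 genes, 52 had at least 1 UMI, 21 had at least 100 and 18 had 20 to 99. The genes with at least 100 UMIs were 16 ligands and 5 receptors. Ccr4, Cxcr1 and Ccl26 had 0 UMIs, so the receptor side of Ccl17 (7 UMIs) and Ccl22 (20 UMIs) was not seen at this depth. A further 13 genes had under 20, with 19 for Ccr3, 19 for Cxcl2, 19 for Ccl1, 16 for Ccl28, 10 for Xcr1, 7 for Ccl20, 6 for Cxcl3, 5 for Cxcl6, 3 for Cxcr6, 3 for Ccr1l1, 1 for Ccr8 and 1 for Ccl25 beside Ccl17. Ccr2, the main receptor of Ccl2 and Ccl7, and Ackr1 were not analysed here.

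Of the 34 ligand genes, 22 lie next to another ligand gene on 5 chromosomes, and 12 do not. In the RefSeq annotation of the rat assembly GRCr8, Ccl2, Ccl7, Ccl11, Ccl12 and Ccl1 follow each other on chromosome 10, as do Ccl5, Ccl9, Ccl6, Ccl3 and Ccl4 elsewhere on it. Cxcl11, Cxcl10 and Cxcl9 are neighbours on chromosome 14, where Cxcl2 and Cxcl1 also lie side by side. The 250 bases before the start of 4 genes are shown, as examples from fibroblast-like (Cxcl1), macrophage-like (Ccl7) and lymphatic-like (Ccl21) nuclei and an interferon-induced gene (Cxcl10), from RefSeq, GRCr8, 5′ to 3′ on the strand of the gene. They are Cxcl1 (chr14:17479322-17479571, minus strand), Cxcl10 (chr14:15988816-15989065, plus strand), Ccl7 (chr10:67513845-67514094, plus strand) and Ccl21 (chr5:61777516-61777765, minus strand). Capitals mark matches on either strand to a kappa B element (GGGA, any base, TTTCC), an interferon response element (GAAA, any pair of bases, GAAA) or a TATA box (TATAAA).
Cxcl1: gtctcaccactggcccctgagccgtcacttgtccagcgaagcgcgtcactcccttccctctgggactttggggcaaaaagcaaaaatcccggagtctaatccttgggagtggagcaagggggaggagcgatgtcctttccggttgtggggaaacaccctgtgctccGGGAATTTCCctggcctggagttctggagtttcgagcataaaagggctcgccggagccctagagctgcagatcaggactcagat
Cxcl10: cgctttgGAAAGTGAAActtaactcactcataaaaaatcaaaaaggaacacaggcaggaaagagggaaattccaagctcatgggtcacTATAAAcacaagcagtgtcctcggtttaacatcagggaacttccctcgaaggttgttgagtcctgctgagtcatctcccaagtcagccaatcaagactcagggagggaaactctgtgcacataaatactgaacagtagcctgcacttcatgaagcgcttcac
Ccl7: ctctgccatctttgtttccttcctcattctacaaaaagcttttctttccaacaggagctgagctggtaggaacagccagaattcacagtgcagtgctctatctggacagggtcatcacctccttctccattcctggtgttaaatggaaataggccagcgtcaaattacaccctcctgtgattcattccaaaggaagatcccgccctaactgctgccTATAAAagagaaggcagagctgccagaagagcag
Ccl21: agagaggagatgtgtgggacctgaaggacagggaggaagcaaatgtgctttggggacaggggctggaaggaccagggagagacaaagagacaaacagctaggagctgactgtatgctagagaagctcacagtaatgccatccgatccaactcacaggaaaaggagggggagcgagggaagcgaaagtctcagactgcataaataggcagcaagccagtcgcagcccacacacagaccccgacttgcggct
Promoters of 42 of the 55 genes were matched by symbol. Cxcl1 was 1 of 3 of them with the kappa B element, which 0.314% of all 33469 promoters hold. Cxcl10 was 1 of 2 with the interferon response element, held by 3.41% of all promoters. Ccl7 and Cxcl10 were among 12 with TATAAA, held by 12.9%. Ccl21 had none of these letters in this window. A match is a stretch of letters and not a measured binding site. Only these fixed letters were searched, so other forms of the elements stay unmarked, and the distance of a match from the start was not considered.

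The leading class differed between the chemokine genes. Of the 39 genes with at least 20 UMIs, 8 had their highest level in macrophage-like nuclei, 6 in B cell-like, 5 in T or NK cell-like, 4 each in lymphatic-like and monocyte or neutrophil-like, and 3 each in cardiomyocyte-like and endocardial-like nuclei. Endothelial-like and fibroblast-like nuclei led for 2 genes each, and Schwann-like and pericyte or smooth muscle-like nuclei for 1 each. Some of these leads rest on very few UMIs. Ccl27, a skin chemokine, led in Schwann-like nuclei from 1 of its 154 UMIs (1, 0 and 0 by library), and Cxcr4 in B cell-like nuclei from 13 of 318. Cxcl10 led in lymphatic-like nuclei, where 54 of its 55 WT UMIs came from 1 nucleus, and the 13 BMD UMIs of Cxcl14 there also came from 1 nucleus.

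**Figure D1:**
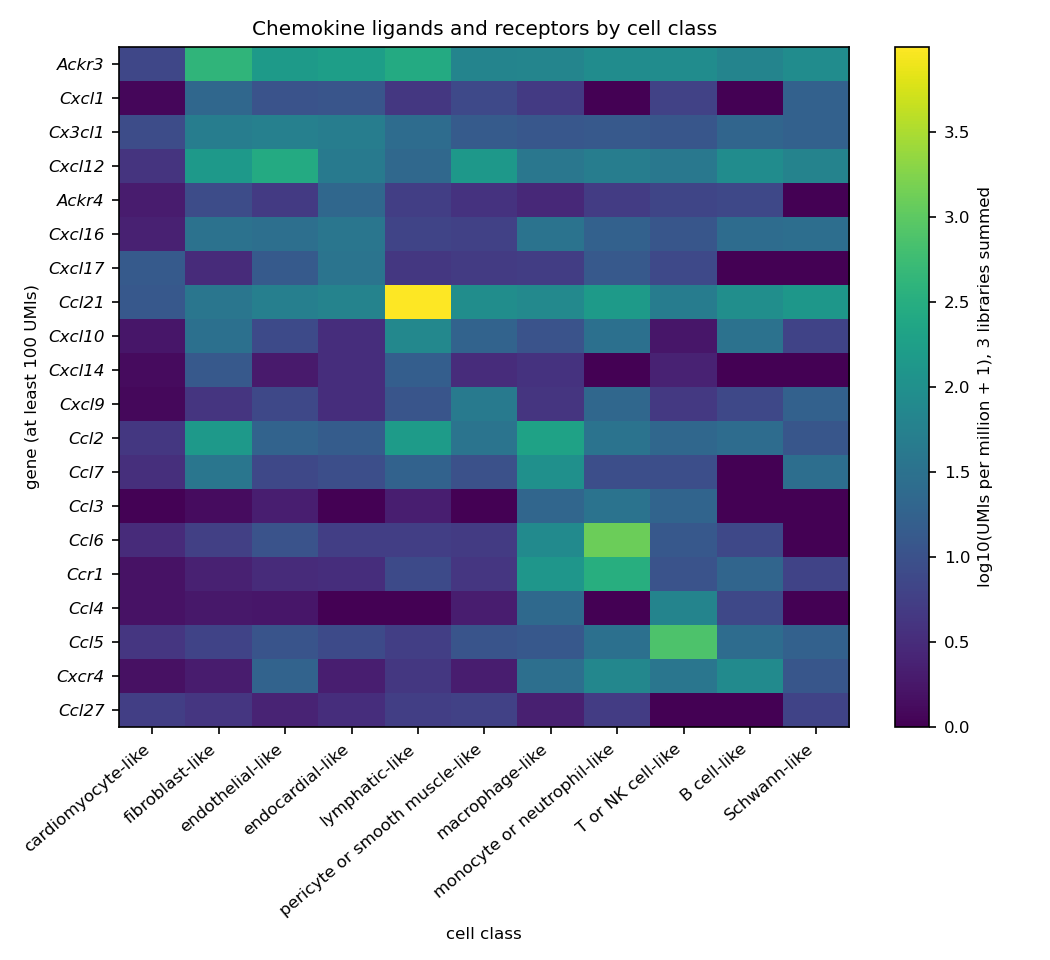
Heat map of chemokine genes with at least 100 UMIs by cell class, with the 3 libraries summed and colour showing UMIs per 1000000 on a log scale. Ccl21 stands out in lymphatic-like nuclei at 9934 CPM, Ccl5 in T or NK cell-like nuclei at 758 CPM and Ccl6 in monocyte or neutrophil-like nuclei at 1279 CPM.

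Ccl21, which leads dendritic cells and lymphocytes into lymphatic vessels through Ccr7, marked lymphatic-like nuclei in all 3 libraries. Its level there was 9426 (8987 to 9880), 9795 (9482 to 10120) and 10400 (10040 to 10760) CPM. A UMI of Ccl21 was present in 88.7, 89.6 and 86.2% of lymphatic-like nuclei, and in 80.7, 78.0 and 77.9% with each nucleus thinned to 500 UMIs. The log2 ratio over WT was 0.06 (-0.03 to 0.14) in BMD and 0.14 (0.06 to 0.23) in DMD, so within the class the level differed little. Summed over all nuclei, Ccl21 was at 119.6, 282 and 298 CPM, higher in both dystrophic libraries. In such sums more cells of a type cannot be told apart from more RNA per cell. The lymphatic-like class was itself larger in these libraries, with 150, 259 and 217 nuclei, or 1.505% (1.28 to 1.76), 3.80% (3.36 to 4.29) and 2.75% (2.40 to 3.13) of nuclei with exact Clopper-Pearson 95% intervals.

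Outside lymphatic-like nuclei Ccl21 was at 18.7, 35.9 and 61.8 CPM. Near-empty barcodes of at most 50 UMIs, which hold RNA released from broken cells, had 449, 748 and 724 CPM, and were thus also lowest in WT. Cardiomyocyte-like nuclei, which should lack the gene, had a UMI in 2.17, 5.09 and 6.08% of nuclei. In macrophage-like nuclei Ccl21 was at 34.0, 70.9 and 134 CPM. Free RNA at its upper limit would bring 97.2, 163 and 205 UMIs to macrophage-like nuclei, against 41, 73 and 131 counted. Of these, 19, 26 and 65 came from 1 nucleus in each library, and the part of free RNA in them was not tested. An immune sub-cluster led by Camp and S100a8, neutrophil genes, had 3661, 1915 and 1820 CPM. It held only 8, 28 and 61 nuclei at a median of 700 UMIs, so its WT level rests on few UMIs. It raised 4 of 6 lymphatic and 4 of 7 monocyte or neutrophil markers and stayed unnamed.

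**Figure D2:**
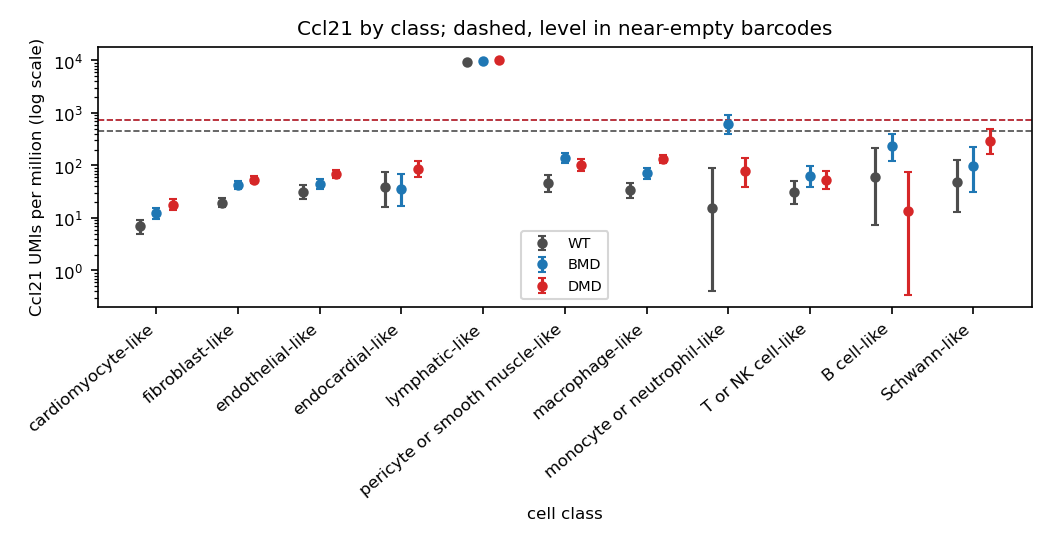
Ccl21 by cell class in the WT, BMD and DMD libraries, in UMIs per 1000000 on a log axis, with exact Poisson 95% intervals as bars and the level in near-empty barcodes as dashed lines. Lymphatic-like nuclei stand at 9426, 9795 and 10400 CPM, far above the dashed lines.

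Receptors for Ccl21 were thinly counted. Ccr7, the signalling receptor of Ccl19 and Ccl21, had 27 UMIs (4, 7 and 16). Its highest level, 18.9 CPM in B cell-like nuclei, rested on 0, 0 and 3 UMIs, and T or NK cell-like nuclei were next at 11.6 CPM over the 3 libraries. Ackr4, which scavenges both ligands, had 185 UMIs, or 4.49, 2.004 and 5.67 CPM over all nuclei, and led in endocardial-like nuclei from 3, 4 and 11 UMIs. Most Ackr4 UMIs of WT lay in fibroblast-like nuclei, at 11.2 (8.40 to 14.6), 2.75 (1.19 to 5.41) and 6.71 (4.25 to 10.1) CPM, where the WT and BMD intervals did not overlap. Ccl19, the other ligand, had 77 UMIs (21, 21 and 35). Its highest level, in B cell-like nuclei, rested on 0, 0 and 4 UMIs, and pericyte or smooth muscle-like nuclei held 10, 14 and 15 at a similar level, 21.7 against 25.2 CPM over the 3 libraries. Ackr2, a scavenger of inflammatory ligands, had 69 UMIs. Its highest level, in lymphatic-like nuclei, rested on 9 of them, while fibroblast-like nuclei held 24, 10 and 16. Ackr4 overlaps Acad11 in the annotation, and use of strand in the counting is not given in the sources used here.

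Ackr3, the scavenger of Cxcl12, was the receptor with the most UMIs (7031) and was lower in fibroblast-like nuclei of both dystrophic libraries. Fibroblast-like nuclei had 497 (478 to 518), 318 (298 to 339) and 387 (366 to 408) CPM, and these intervals did not overlap. A UMI of Ackr3 was present in 39.9, 31.5 and 33.2% of fibroblast-like nuclei, against 2.17, 1.96 and 2.34% of cardiomyocyte-like nuclei. The log2 ratio over WT was -0.65 (-0.76 to -0.54) in BMD and -0.36 (-0.46 to -0.26) in DMD. Over all nuclei Ackr3 was at 186, 107 and 162 CPM, while fibroblast-like nuclei made up 35.3, 24.1 and 28.6% of the libraries. Lymphatic-like nuclei gave another order, 201 (142 to 277), 342 (285 to 406) and 238 (187 to 298) CPM, with BMD above WT. In endothelial-like nuclei Ackr3 was at 144, 159 and 139 CPM, with overlapping intervals.

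Cxcl12, which retains leukocytes and stem cells, was highest in endothelial-like nuclei, at 292 (264 to 322), 249.4 (227 to 273) and 297 (273 to 322) CPM. The log2 ratio over WT was -0.23 (-0.42 to -0.03) in BMD and 0.02 (-0.16 to 0.21) in DMD. The endothelial-like clusters differed more than the libraries. The cluster led by Btnl9 and Sox17 had 473, 397 and 535 CPM of Cxcl12, and the cluster led by Unc5c and Rasa4 had 147, 85.3 and 126 CPM. The Btnl9 cluster made up 47.3, 58.1 and 46.2% of endothelial-like nuclei. Fibroblast-like nuclei had 185 (173 to 197), 97.2 (86.2 to 109) and 129.5 (118 to 142) CPM of Cxcl12, without overlap, and pericyte or smooth muscle-like nuclei had 157 (129 to 189.9), 71.2 (50.1 to 98.1) and 165 (134 to 201) CPM, where BMD was lowest. Over all nuclei Cxcl12 was at 96.5, 61.8 and 102 CPM. In fibroblast-like nuclei of the libraries together, a UMI of Cxcl12 was found in 22.1% of those with Ackr3 and 14.4% of those without. Nuclei with both were deeper, with a median of 1796 UMIs against 1334 in the class. In endothelial-like nuclei the order was the other way, with 14.7% and 20.4%.

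Cxcr4, the signalling receptor of Cxcl12, had 6.70, 5.08 and 9.22 CPM over all nuclei. Its lead in B cell-like nuclei rested on 1, 9 and 3 UMIs. Macrophage-like nuclei had 39.0 (28.6 to 51.8), 15.5 (8.88 to 25.2) and 26.6 (17.4 to 38.9) CPM, with WT above BMD, and endothelial-like nuclei had 21.5, 13.1 and 19.9 CPM with overlapping intervals.

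**Figure D3:**
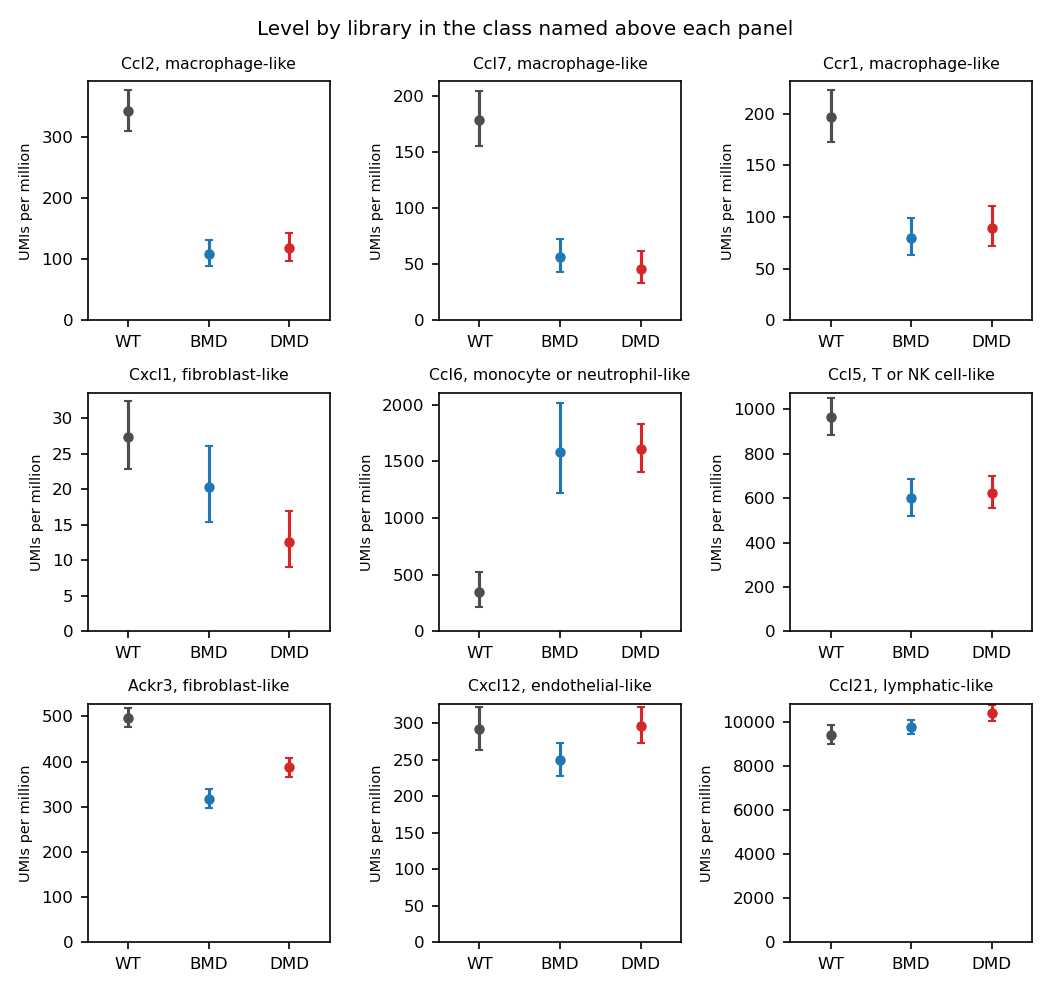
A panel each for 9 chemokine genes in the cell class named above it, in UMIs per 1000000 on a linear axis from 0 for the WT, BMD and DMD libraries, with exact Poisson 95% intervals as bars. Ccl2 in macrophage-like nuclei is highest in WT (342, 109 and 118 CPM) and Ccl6 in monocyte or neutrophil-like nuclei is lowest in WT (348, 1584 and 1610 CPM).

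Ccl2 and Ccl7, neighbouring genes whose products attract monocytes, were lower in macrophage-like nuclei of both dystrophic libraries. Ccl2 had 412, 112 and 116 UMIs there, or 342 (309 to 376), 109 (89.5 to 131) and 118 (97.9 to 142) CPM. Its log2 ratio over WT was -1.65 (-1.97 to -1.35) in BMD and -1.53 (-1.84 to -1.23) in DMD. A UMI of Ccl2 was present in 21.4, 8.65 and 8.83% of macrophage-like nuclei, in 11.3, 2.99 and 4.59% after thinning to 500 UMIs, and in 1.18, 1.63 and 0.374% of cardiomyocyte-like nuclei without thinning. Ccl7 had 216, 58 and 45 UMIs or 179 (156 to 205), 56.3 (42.8 to 72.8) and 46.0 (33.5 to 61.5) CPM, with log2 ratios of -1.67 (-2.11 to -1.25) and -1.96 (-2.46 to -1.49). For both genes the WT interval lay above the others. Over all nuclei Ccl2 was at 82.5, 60.3 and 33.5 CPM and Ccl7 at 30.4, 14.5 and 11.9 CPM. In macrophage-like nuclei of the libraries together, a UMI of Ccl7 was found in 39.9% of those with Ccl2 and in 3.45% of the others. Nuclei with both were deeper, with a median of 1637 UMIs against 1192 in the class. The nuclei with Ccl2 numbered 166, 55 and 50 by library, so WT weighed most. The part of depth and library in this overlap was not tested. Free RNA at its upper limit would bring 48.4, 26.8 and 21.9 of the Ccl2 UMIs. Both ratios share the WT library.

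Among the receptors of macrophage-like nuclei, Ccr1, which binds Ccl3, Ccl5 and Ccl6, had 196 (172 to 223), 79.6 (63.3 to 98.8) and 89.9 (72.1 to 111) CPM, with WT above both others. Over all nuclei Ccr1 was at 16.4, 7.08 and 12.6 CPM. Cx3cr1, the fractalkine receptor of resident macrophages and monocytes, had 93 UMIs, with 26, 19 and 29 in macrophage-like nuclei.

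Of the 14 ligands with at least 20 UMIs in macrophage-like nuclei, 9 were highest in WT, 1 in BMD and 4 in DMD, regardless of whether their intervals overlapped. How all genes split by highest library in these nuclei is not given here, so this split is not read as a trait of the ligands. The ligands highest in DMD were Ccl21, Cx3cl1 at 8.29, 4.85 and 21.4 CPM, Cxcl12 at 37.3, 34.0 and 42.9 CPM and Cxcl16 at 34.8, 27.2 and 35.8 CPM. Ccl3, an inflammatory ligand of Ccr1, had 51, 8 and 5 UMIs or 42.3 (31.5 to 55.6), 7.76 (3.35 to 15.3) and 5.11 (1.66 to 11.9) CPM there. It led in monocyte or neutrophil-like nuclei from 1, 0 and 7 UMIs, and over all nuclei it was at 4.20, 1.002 and 1.67 CPM. Ccl4, its neighbour and also an inflammatory ligand, had 43.1 (32.2 to 56.5), 13.6 (7.43 to 22.8) and 6.13 (2.25 to 13.3) CPM in macrophage-like nuclei. For both genes the WT interval lay above the others. Of the less counted ligands, Ccl24 (96 UMIs in all) had 43, 11 and 18 UMIs in macrophage-like nuclei, Ccl12 (61) had 28, 12 and 8 and Ccl9 (34) had 19, 4 and 0. Cxcl13, a B cell attractant, had 24 UMIs and led in this class from 5, 6 and 2. Ccl3 and Ccl6 overlap the same long non-coding RNA gene in the annotation.

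Counts past 2-fold were taken on the ratio of CPM, for genes with at least 20 UMIs over the libraries compared. A gene can thus qualify through the library where it is high, as Ccl9 did in macrophage-like nuclei with 19 UMIs in WT and 4 in BMD. The share of all genes used the same minimum but was not matched for level or cell class. These counts are therefore not read as a trait of the chemokine genes. In macrophage-like nuclei 18 of the 55 genes qualified in each comparison. In BMD 1 was higher than in WT, Ccl21, where 2.29% of 9814 genes were. With free RNA subtracted, Ccl21 was not called higher in macrophage-like nuclei of BMD or DMD. Of its UMIs there, 26 of 73 in BMD and 65 of 131 in DMD came from 1 nucleus. In BMD 9 were lower, Ccl2, Ccl24, Ccl3, Ccl4, Ccl6, Ccl7, Ccl9, Ccr1 and Cxcr4, against 4.54% of all genes. In DMD 3 were higher, Ackr3, Ccl21 and Cx3cl1, against 4.1% of 9900 genes. In DMD 6 were lower, Ccl12, Ccl2, Ccl3, Ccl4, Ccl7 and Ccr1, against 3.39%. The median log2 ratio of the qualifying chemokine genes, taken with 5 CPM added to each level, was -0.88 in BMD and -0.42 in DMD, against -0.02 and 0.02 over all genes.

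The make-up of macrophage-like nuclei differed between libraries. A sub-cluster led by Spp1 and Fn1, with 4 of 7 monocyte or neutrophil markers and 2 of 10 macrophage markers raised, held 26.9, 9.12 and 9.72% of them. In this sub-cluster Ccl2 was at 971 (849.9 to 1105), 593 (434 to 791) and 455 (309 to 646) CPM, Ccl7 at 486, 232 and 206 CPM and Ccr1 at 469, 181 and 147 CPM. The sub-cluster with Trem2 and Apoe had 478 (355 to 630.4), 66.2 (37.1 to 109) and 80 (38.4 to 147) CPM of Ccl2. The sub-cluster with Cd163 and Lyve1, genes of resident macrophages, had 264 (193 to 353), 80.4 (46.9 to 129) and 127 (72.4 to 206) CPM of Ccl2. WT was thus highest for Ccl2 in each of these sub-clusters. The WT interval overlapped only that of DMD in the last, while the BMD and DMD intervals overlapped in each. Without the Spp1 sub-cluster, a choice made after seeing the data, Ccl2, Ccl4, Ccl6 and Ccl7 in BMD and Ccl2, Ccl4 and Ccl7 in DMD were still at least 2-fold lower. Ccr1 and the other genes lower in the main setting were no longer counted as 2-fold lower. The log2 ratio of Ccl2 was then -1.44 in BMD and -1.01 in DMD. Other immune sub-clusters also differed in size. The sub-cluster with Trem2 and Apoe held 79, 194 and 121 nuclei. A sub-cluster led by Cenpf and Clec9a, with 5 of 6 dendritic markers raised, held 69, 39 and 30. The part of these sizes in the remaining ratios was not tested.

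Some macrophage-like nuclei carried genes of other cells. Sub-clusters led by genes of another class held 22.8, 17.0 and 32.5% of them. The 9 fibroblast markers summed to 2085, 1413 and 3349 CPM in macrophage-like nuclei, the 9 endothelial markers to 556, 604 and 1214 CPM and the 10 macrophage markers to 4320, 4988 and 4448 CPM. Without these sub-clusters, also chosen after seeing the data, 10 chemokine genes were lower in BMD and 5 in DMD, and only Ccl21 was higher in either. The share of all genes in this setting is not given here, so these counts are not set against it. Ccl2 then had log2 ratios of -1.93 and -1.72.

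**Figure D4:**
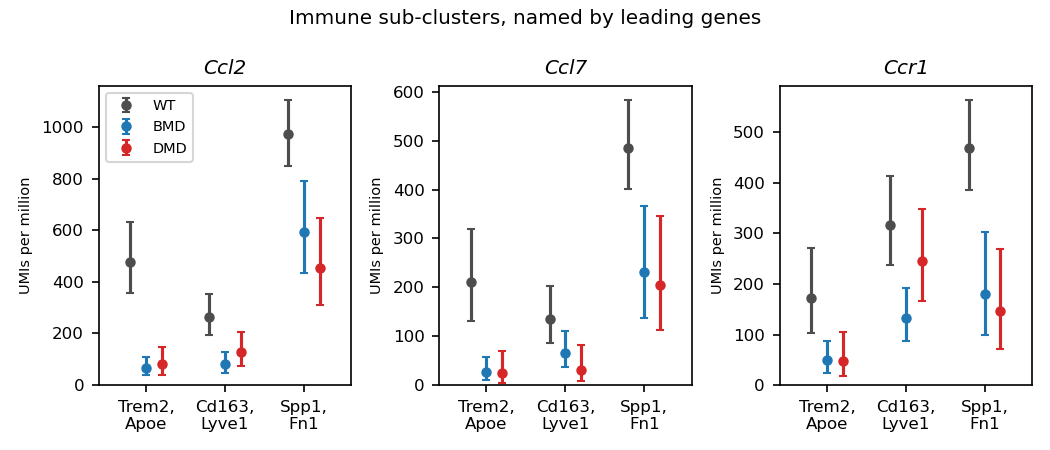
Ccl2, Ccl7 and Ccr1 in the immune sub-clusters with Trem2 and Apoe, Cd163 and Lyve1, or Spp1 and Fn1, in UMIs per 1000000 on a linear axis from 0 for the WT, BMD and DMD libraries, with exact Poisson 95% intervals as bars. Ccl2 in the Spp1 sub-cluster stands at 971, 593 and 455 CPM, and WT is highest for Ccl2 in each sub-cluster.

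Ccl2, Ccl7 and Cxcl1 were far higher in a small cluster of fibroblast-like nuclei led by Tnc, Ptx3 and Tnfaip6, with 303 nuclei, or 3.13, 6.96 and 3.50% of the class. Ccl2 in the Tnc cluster was at 2452 (2243 to 2674), 1556 (1414 to 1709) and 883 (748 to 1035) CPM, against 64.3, 56.7 and 25.8 CPM in the other 7103 fibroblast-like nuclei. Ccl7 was at 562 (465 to 674), 223 (172 to 286) and 175 (118 to 250.4) CPM, against 25.1, 13.3 and 10.8. Cxcl1, a neutrophil attractant that binds Cxcr2, was at 524 (430.2 to 632), 138 (98.3 to 189) and 117 (71.4 to 181) CPM, against 4.98, 7.61 and 7.06. WT was highest for all 3 ligands within the Tnc cluster. Single nuclei weighed on Cxcl1, with 37, 8 and 18 of its 109, 39 and 20 UMIs in the Tnc cluster held by 1 nucleus of each library. Without these nuclei, a choice made after seeing the data, Cxcl1 was at 356 (279 to 449), 111 (75.7 to 158) and 11.8 (1.43 to 42.7) CPM there, and the DMD interval, from 2 UMIs, included the level of the other fibroblast-like nuclei. Ackr3 had the other pattern, 139, 117 and 152 CPM in the Tnc cluster against 514, 339 and 399. With the libraries together, a UMI of Ccl7 was found in 27.2% of fibroblast-like nuclei with Ccl2 and 1.43% of the others, and a UMI of Cxcl1 in 9.23% and 0.671%. Nuclei with both Ccl2 and Ccl7 were deeper, with a median of 1986 UMIs against 1334 in the class.

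The larger Tnc cluster of BMD entered the level of the whole class. Over all fibroblast-like nuclei Ccl2 was at 167 (156 to 179), 202 (186 to 219) and 68.5 (60.1 to 77.9) CPM. BMD thus stood above WT here, although its value was lower within each cluster, with overlapping intervals in the main one. With the nucleus of each library holding most Ccl2 left out, BMD was still highest, but the WT and BMD intervals overlapped. Ccl2 was then at 159.6 (148.5 to 171.2), 184.1 (168.8 to 200.3) and 63.61 (55.45 to 72.64) CPM in the class. Cxcl1, which led in this class, was at 27.4 (22.9 to 32.4), 20.3 (15.4 to 26.1) and 12.5 (9.08 to 16.9) CPM, with only WT and DMD apart, and at 9.67, 6.68 and 5.81 CPM over all nuclei. Without the nucleus of each library with most Cxcl1, it was at 19.7 (15.9 to 24.1), 17.5 (13.1 to 23.1) and 7.30 (4.72 to 10.8) CPM in the class, with DMD below both others. In lymphatic-like nuclei Ccl2 was at 158 (106 to 226), 257 (208 to 313) and 34.9 (17.4 to 62.4) CPM, with DMD lowest.

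**Figure D5:**
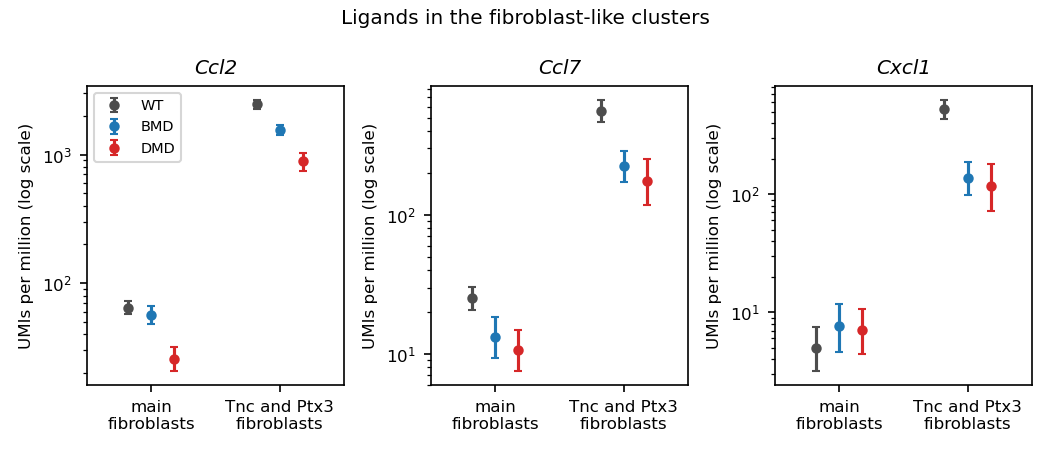
Ccl2, Ccl7 and Cxcl1 in the main fibroblast-like cluster and in the cluster led by Tnc and Ptx3, in UMIs per 1000000 on a log axis for the WT, BMD and DMD libraries, with exact Poisson 95% intervals. Ccl2 stands at 2452, 1556 and 883 CPM in the Tnc cluster and at 64.3, 56.7 and 25.8 CPM in the main cluster.

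Further ligands were found in stromal and vascular nuclei. Cxcl14, a tissue-resident chemokine, was at 18.02 (14.4 to 22.2), 9.62 (6.39 to 13.9) and 5.83 (3.56 to 9.01) CPM in fibroblast-like nuclei, with WT above both others, and at 6.64, 3.14 and 2.11 CPM over all nuclei. Cxcl16, the membrane-bound ligand of Cxcr6, was at 33.1, 25.8 and 34.1 CPM in fibroblast-like nuclei, with overlapping intervals, and 17.7, 11.02 and 20.9 CPM over all nuclei. Cxcl16 led in endocardial-like nuclei from 13, 6 and 13 UMIs. Cxcl10, an interferon-induced T cell attractant, was at 30.04 (25.4 to 35.4), 36.4 (29.8 to 44.0) and 20.7 (16.2 to 26.1) CPM in fibroblast-like nuclei and at 15.4, 10.3 and 9.52 CPM over all nuclei. Cx3cl1, the membrane-bound ligand of Cx3cr1, led in endothelial-like nuclei at 74.1 (60.3 to 90.1), 43.1 (34.1 to 53.7) and 53.2 (43.6 to 64.3) CPM, with WT above BMD, and was at 30.5, 18.03 and 28.4 CPM over all nuclei. This lead was narrow, with 55.1 CPM over the 3 libraries against 48.2 in endocardial-like nuclei. Fibroblast-like nuclei held more Cx3cl1 UMIs, 277, 103 and 157, against 100, 79 and 107 in endothelial-like nuclei. Cxcl9, an interferon-induced ligand of Cxcr3, led in pericyte or smooth muscle-like nuclei at 47 (32.1 to 66.3), 34.6 (20.5 to 54.7) and 47.2 (31.4 to 68.2) CPM, with overlapping intervals, and was at 3.73, 3.01 and 5.88 CPM over all nuclei. Cxcl16 overlaps Zmynd15, and Cxcl10 and Cxcl11 overlap Art3, so their reads are uncertain.

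Ccl5, which recruits T cells and monocytes, was the ligand of T or NK cell-like nuclei and was highest in WT. Its level there was 965 (886 to 1049), 599 (518 to 688) and 623 (555 to 698) CPM, with log2 ratios over WT of -0.69 (-0.93 to -0.45) in BMD and -0.63 (-0.84 to -0.42) in DMD. A UMI of Ccl5 was present in 43.1, 32.5 and 33.4% of these nuclei, and in 0.985, 0.848 and 2.15% of cardiomyocyte-like nuclei. Over all nuclei Ccl5 was at 37.4, 17.2 and 31.6 CPM. In the sub-cluster with the cytotoxic genes Gzma and Prf1, Ccl5 was at 5121 (4300 to 6054), 3738 (2783 to 4915) and 3284 (2620 to 4066) CPM. In the NK-like sub-cluster led by Kir3dl1 it was at 1638 (1430 to 1868), 338 (175 to 590.5) and 949 (729 to 1214) CPM. In the T cell-like sub-cluster led by Scart1 and Il23r it was at 1040 (806 to 1321), 956 (771 to 1172) and 318 (192 to 497) CPM, where DMD was lowest. The Kir3dl1 sub-cluster held 155, 40 and 75 nuclei, and the 7 NK cell markers summed over T or NK cell-like nuclei to 1301, 919 and 1230 CPM, with 1, 2 and 1 of them at 0. Genes of other cells were also counted in T or NK cell-like nuclei. The 10 cardiomyocyte markers summed there to 4275, 5022 and 3583 CPM and the 9 fibroblast markers to 2608, 1657 and 3732 CPM. The 10 T cell markers summed to 3437, 4989 and 3797 CPM. The part of this make-up and of genes of other cells in the level of Ccl5 was not tested.

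Ccl4 also led in T or NK cell-like nuclei, at 90.1 (67.1 to 118), 54.4 (32.3 to 86.0) and 37.3 (22.1 to 58.9) CPM, with only WT and DMD apart, and was at 6.64, 2.81 and 2.25 CPM over all nuclei. With the libraries together, a UMI of Ccl4 was found in 11.8% of nuclei of this class with Ccl5 and 2.85% of the others. Nuclei with both had a median of 1012 UMIs against 909 in the class. Xcl1, which attracts dendritic cells through Xcr1, had 79 UMIs, with 33, 10 and 17 in this class. Cxcr3, a receptor of activated T cells for Cxcl9, Cxcl10 and Cxcl11, had 41 UMIs, with 17, 9 and 3 in this class, and Ccr9, a gut-homing receptor, had 23. B cell-like nuclei, 29, 43 and 54 in number, had the highest levels of Ccr6 (14 of 58 UMIs) and Cxcr5 (9 of 48). Ccl22 (20) also led there, from 0, 0 and 1 UMIs, while macrophage-like nuclei held 10, 2 and 1.

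Ccl6, a rodent ligand of Ccr1, was higher in monocyte or neutrophil-like nuclei of both dystrophic libraries. The class held 31, 33 and 97 nuclei, or 0.311% (0.211 to 0.441), 0.485% (0.334 to 0.680) and 1.23% (0.998 to 1.498) of the libraries. Ccl6 had 22, 65 and 225 UMIs there, or 348 (218 to 527), 1584 (1222 to 2019) and 1610 (1406 to 1834) CPM, and log2 ratios over WT of 2.19 (1.47 to 2.95) in BMD and 2.21 (1.57 to 2.91) in DMD. The 7 markers of the class summed to 7930, 30558 and 41095 CPM in the same nuclei, with 0, 1 and 1 of them at 0, and were thus also lowest in WT. The 10 cardiomyocyte markers summed to 14737, 8773 and 7441 CPM there, highest in WT, with none at 0 in any library. The part of these marker differences in the Ccl6 level was not tested. The class itself depended on the setting, with 161 nuclei in the main setting and 102 with doublets removed. At resolution 1.0 its name also covered 571 nuclei led by Spp1. Levels of Ccl6 are given for the main setting only. In macrophage-like nuclei Ccl6 was at 107 (89.3 to 127), 51.5 (38.5 to 67.3) and 81.7 (64.8 to 102) CPM, with WT above BMD. Over all nuclei Ccl6 was at 11.2, 10.1 and 31.4 CPM, highest in DMD.

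Receptors of monocyte or neutrophil-like nuclei were few. Ccr1 led there at 142 (65.1 to 270.4), 366 (205 to 603) and 394 (296 to 512) CPM from 9, 15 and 55 UMIs. Its log2 ratio over WT was 1.36 (0.07 to 2.73) in BMD and 1.47 (0.44 to 2.67) in DMD. With clusters at resolution 1.0 it was -0.83 and -0.43. There the class name covered a cluster of 571 nuclei led by Spp1 beside the 162 nuclei led by S100a9, so most nuclei were others. The BMD ratio also changed sign with Scrublet doublets removed. The direction of Ccr1 thus depended on which nuclei were taken. Cxcr2, the neutrophil receptor of Cxcl1 and Cxcl2, had 52 UMIs, of which the class held 2, 6 and 29.

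Cardiomyocyte-like nuclei held few chemokine UMIs. Ccl11, which attracts eosinophils through Ccr3, had 0, 34 and 17 UMIs there, spread over 33 nuclei in BMD and 15 in DMD. Set against the 3 counts that a count of 0 in WT allows, the level of Ccl11 was 10.8-fold higher in BMD and 9.28-fold higher in DMD. These folds take the BMD and DMD counts as they are, without their counting error, and are not lower limits. Over all nuclei Ccl11 had 4, 36 and 25 UMIs. Cxcl17, a mucosal chemokine, was at 15.1 (12.2 to 18.5), 7.03 (5.17 to 9.35) and 17.8 (13.8 to 22.5) CPM in cardiomyocyte-like nuclei, with BMD lowest, and at 9.44, 6.48 and 11.1 CPM over all nuclei, while it led in endocardial-like nuclei from 10, 6 and 13 UMIs. Ccl27 was at 4.57, 3.89 and 5.16 CPM in cardiomyocyte-like nuclei and 3.56, 2.605 and 3.92 CPM over all nuclei. Its receptor Ccr10 (80 UMIs) and Cxcl11 (65 UMIs) led in cardiomyocyte-like nuclei. Ccl27 overlaps Il11ra1, Ccr10 overlaps Cntnap1 and Cxcl17 overlaps a long non-coding RNA gene.

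Over all nuclei 34 chemokine genes could be compared between BMD and WT. At least 2-fold higher in BMD were 2, Ccl11 and Ccl21, where 2.86% of 13966 genes were. At least 2-fold lower were 10, Ackr4, Ccl24, Ccl3, Ccl4, Ccl5, Ccl7, Ccl9, Ccr1, Cxcl14 and Xcl1, against 3.79% of all genes. For DMD 36 could be compared. Higher were 6, Ccl11, Ccl19, Ccl21, Ccl6, Ccr7 and Cxcr2, against 4.48% of 14011 genes. Lower were 8, Ccl12, Ccl2, Ccl3, Ccl4, Ccl7, Ccl9, Cxcl14 and Cxcr3, against 1.93%. The median log2 ratio of the chemokine genes, again with 5 CPM added, was -0.33 in BMD and -0.06 in DMD, against -0.06 and 0.02 over all genes. Both comparisons share WT. Some calls rest on few UMIs, in WT and DMD 22 and 5 for Ccl9, 23 and 6 for Cxcr3 and 4 and 16 for Ccr7. The WT and DMD intervals of Ccl19 overlapped, at 0.758 to 1.87 and 1.77 to 3.54 CPM. The shares of all genes were not matched for such low counts or for cell class. The chemokine counts are therefore not read as an excess over them. Sums over all nuclei also follow the sizes of the classes. Monocyte or neutrophil-like nuclei, 31 in WT and 97 in DMD, held 29 of 37 Cxcr2 UMIs and 225 of 433 Ccl6 UMIs in DMD. Ccl6 was also higher within this class. Lymphatic-like nuclei made up 1.505, 3.80 and 2.75% of the libraries, while the level of Ccl21 within them differed little. The part of class size in these calls was not tested.

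Of 71 genes that act downstream of chemokine receptors, such as G protein subunits, arrestins and Rac genes, 1 was past 2-fold over all nuclei in BMD, Rgs2, which was 2.15-fold higher, and 0 in DMD. Of all genes, 2.86% were higher and 3.79% lower over all nuclei in BMD, and 4.48 and 1.93% in DMD. In macrophage-like nuclei 67 of the 71 signalling genes could be compared, and 1 was higher and 3 were lower in BMD and 3 lower in DMD. The lower ones were 4.48% in each, close to the 4.54 and 3.39% of all genes. Of 18 chemokine-like genes and binding partners, 16 could be compared over all nuclei. Cmklr1, the chemerin receptor, and Sdc4, a heparan sulfate carrier, were at least 2-fold lower in BMD, and in DMD Sdc4 was lower and Gpr182, an endothelial scavenger receptor, higher. The same shares of all genes over all nuclei stand beside these counts, which rest on only 16 genes.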

How the data were processed

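Heart nuclei were sequenced with the 10x Genomics 3′ v3.1 kit named in the labels and methods, while another passage of the study names a 5′ kit. The authors deposited raw UMI counts for all barcodes, and the submitters' processing notes name Cell Ranger and the genome build rn6. By their headers, the WT matrix came from another Cell Ranger version than the BMD and DMD matrices, and a difference in counting cannot be told apart from genotype. Whether introns or strand were used in counting is not given in the sources used here. The WT matrix was an aggregate of 3 libraries in which BMD and DMD were thinned, and only its WT barcodes were used.

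The barcodes with the most UMIs, up to the number the methods give, were taken as nuclei, so that the smallest nucleus had between 513 and 546 UMIs. After log normalization to 10000 UMIs, nuclei were clustered with scanpy 1.11.5 on 2000 variable genes, 30 principal components and 15 neighbours at Leiden resolution 0.5, without integration. The chemokine genes, mitochondrial and sex genes and 8 further genes such as Nppa, Ryr2 and Dmd were left out. A class name needed 3 markers at least 2-fold above the other nuclei (CPM plus 5, at least 10 UMIs). Clusters stayed unnamed if their 10 top genes held more markers of another class than of the best class, or more than 5 mitochondrial genes. So did clusters with few UMIs per nucleus and no marker of the best class among the 10 top genes. Clusters whose nuclei Scrublet called doublets in over 50% also stayed unnamed. The mitochondrial and doublet rules were set after the data were seen. Immune nuclei were clustered once more on their own.

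UMIs were summed by library and class. Levels carry exact Poisson, shares exact Clopper-Pearson and ratios conditional binomial 95% intervals (scipy 1.17.1), for counting error only, and the functions were tested on simulated data. Free RNA was profiled in barcodes with at most 50 UMIs and bounded by the least represented marker list of another class. Genes with at least 100 UMIs are described in their leading class and in each library, those with 20 to 99 UMIs by total and leading class, and the rest by total, and some genes are not reported here. The genes, lists and marker genes were chosen with earlier results of these data known. The alternatives were minimums of 500 or 1000 UMIs, doublet or mitochondrial filters, free RNA subtraction, other UMI minimums, TMM scaling with edgeR 4.0.16, resolution 1.0, clustering with the chemokine genes and thinning.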

Additional observations from a re-analysis of the deposited data

How the results depend on the processing

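The counts of genes past 2-fold depended most on how many UMIs a gene needed. With a minimum of 50 UMIs over all nuclei, 1 was higher in BMD, and 3 were higher and 5 lower in DMD. With a minimum of 1 UMI, BMD had 6 higher and 17 lower and DMD 13 lower, where 8.82, 9.32 and 6.86% of all genes were. With nuclei over 5% mitochondrial UMIs removed, 5 were lower in BMD and 4 in DMD, and with at least 1000 UMIs per nucleus 3 were higher in DMD. Of the signalling genes, 2 were past 2-fold in BMD with at least 1000 UMIs, with doublets or high mitochondrial nuclei removed, with free RNA subtracted or with TMM scaling, and 1 in DMD with at least 1000 UMIs. In macrophage-like nuclei, 0 were higher in BMD with at least 1000 UMIs, with free RNA subtracted or with the chemokine genes in the clustering. With doublets removed, with free RNA subtracted or without sub-clusters led by another class, 1 was higher in DMD. A minimum of 1 UMI gave 4 higher and 20 lower in BMD and 11 higher and 15 lower in DMD, where 10.1, 13.6, 13.3 and 11.2% of all genes were. At resolution 1.0, 4 were lower in BMD and 2 in DMD, and without the Spp1 sub-cluster 4 and 3. Macrophage-like nuclei numbered 1063 at resolution 1.0 against 1979 in the main setting. A cluster of 571 nuclei led by Spp1 was there named monocyte or neutrophil-like. The fibroblast-like cluster led by Tnc held 303 nuclei in the main setting and 315 with doublets removed. It held 403 with high mitochondrial nuclei removed, 469 at resolution 1.0 and 829 with the chemokine genes in the clustering. Its shares and levels by library are given for the main setting only. Ccl2 and Ccl7 remained at least 2-fold lower in macrophage-like nuclei of both BMD and DMD under each of these alternatives. The minimum of 1 UMI admits more genes by construction, 51 chemokine genes against 34 in BMD over all nuclei, and the minimum of 50 fewer. The causes of the other changes were not tested. For alternatives without a share of all genes beside them, that share is not given here. Those counts show only how the chemokine calls moved and are not set against all genes.

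These log2 ratios over WT changed sign. That of Ccl21 in lymphatic-like nuclei of DMD was -0.0379 and that of Cxcl12 in endothelial-like nuclei of BMD 0.29 with at least 1000 UMIs. That of Ccr1 in monocyte or neutrophil-like nuclei was -0.0494 in BMD with doublets removed, and -0.83 in BMD and -0.43 in DMD at resolution 1.0. At resolution 1.0 this class name also covered a cluster of 571 nuclei led by Spp1. The cause was not tested. No paired analysis was possible because each genotype had 1 library.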
